A study of Mus musculus with 6 samples.

Results

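The genes for 8 matricellular proteins and fibronectin, *Fn1*, *Postn*, *Tnc*, *Sparc*, *Thbs1*, *Thbs2*, *Spp1*, *Ccn1* and *Ccn2*, were followed in RNA of the cardiac side population (SP), heart cells that pump out the DNA dye Hoechst. They were chosen by name, through Ensembl identifiers, and make up 9 of the 50600 genes counted. Each of 6 libraries came from the sorted cells of 4 mice aged 8 to 12 weeks. There were 3 wild-type (wt) libraries from the strain C57BL/6NRj and 3 libraries labelled flt3L-/- from the strain C57BL/6Flt3Ltml/mx, which is labelled as lacking the gene of the Flt3 ligand. The name of the latter strain gives a C57BL/6 background, and the study's methods do not state its substrain. One library of each kind was sorted on each of 3 dates, and these pairs are numbered 1, 2 and 3 by date, with pair 2 sorted 2 days and pair 3 sorted 372 days after pair 1. All hearts were digested with collagenase for 25 min and incubated with the dye for 90 min at 37 °C before sorting, and cardiomyocytes and erythrocytes were depleted. The labels name no other treatment. The question was whether RNA of these genes differed between the genotypes.

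Matricellular proteins are secreted into the extracellular matrix, where they bind structural fibers, growth factors and cell surface receptors without forming fibers of their own. In the healthy adult heart most of them are made at low levels, and they return after injury, when fibroblasts and vascular cells remodel the tissue. Fibronectin is a structural glycoprotein that cells assemble into fibrils through integrins, and it is the scaffold on which several of these proteins are deposited.

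Values are the reads counted on each gene, scaled to counts per 1000000 (CPM) with TMM factors, a correction for library composition. Total counts per library were 24370913 to 31145519, and 3 counts, taken as the detection limit, equal 0.109 to 0.127 CPM. This limit covers counting error only, since the reads carry no molecular identifiers. *Flt3l*, the targeted gene, was not lower in the libraries labelled flt3L-/- than in wt. Over pairs 1, 2 and 3 its level was 8.67, 10.8 and 12.1 CPM in wt and 13.6, 12.4 and 14.4 CPM in those labelled flt3L-/-, and Gm45713 shares 22.1% of its exon bases. A negative log2 fold change means a lower level in the libraries labelled flt3L-/- than in wt. It comes from edgeR's quasi-likelihood model, in which the sorting date was a covariate, and p-values were adjusted by Benjamini-Hochberg over the 13475 protein-coding genes tested. Markers of endothelial cells and fibroblasts were abundant in every library. The SP transporter gene *Abcg2* had 147 to 274 CPM, and *Pecam1*, which encodes CD31, had 873 to 1524 CPM. The study's methods describe both a sort of the whole SP and a sort of its Sca1+/CD31- fraction, whereas the labels name the cardiac SP. The 3 libraries of a group are separate pools of mice. With the date in the model, the p-values between the genotypes rest on how far the differences within pairs vary, with information shared over genes.

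Upstream sequences are given for 3 members, *Ccn1*, which had the highest level per length, and *Postn* and *Thbs2*, which had the smallest p-values between the genotypes. RefSeq promoters on GRCm38.p6 were found for 6 of the 9 members, in 9 promoters in all, and those of *Thbs1*, *Fn1* and *Ccn2* were not matched. Each sequence is the 250 bases before an annotated start, read 5′ to 3′ on the strand of the gene, with motif matches in capitals. The *Ccn1* sequence is chr3:145649986-145650235 (minus strand), the *Postn* sequence, the second of 2 RefSeq promoters of this gene and the one next to the annotated gene start, is chr3:54360857-54361106 (plus strand), and the *Thbs2* sequence is chr17:14694263-14694512 (minus strand).
Ccn1: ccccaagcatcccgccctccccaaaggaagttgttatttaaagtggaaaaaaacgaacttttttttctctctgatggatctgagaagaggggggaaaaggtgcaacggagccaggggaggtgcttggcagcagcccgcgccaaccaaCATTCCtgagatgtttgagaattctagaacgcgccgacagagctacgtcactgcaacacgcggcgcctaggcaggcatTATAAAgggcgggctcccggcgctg
Postn: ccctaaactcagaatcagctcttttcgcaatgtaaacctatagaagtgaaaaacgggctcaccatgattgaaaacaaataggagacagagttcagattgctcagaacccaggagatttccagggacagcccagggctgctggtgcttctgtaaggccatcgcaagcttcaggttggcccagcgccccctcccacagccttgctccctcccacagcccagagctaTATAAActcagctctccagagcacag
Thbs2: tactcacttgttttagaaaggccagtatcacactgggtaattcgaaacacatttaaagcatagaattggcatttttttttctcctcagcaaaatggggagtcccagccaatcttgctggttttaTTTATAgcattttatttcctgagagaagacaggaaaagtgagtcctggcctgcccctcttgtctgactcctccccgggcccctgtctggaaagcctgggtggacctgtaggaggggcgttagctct

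The capitals in *Ccn1* mark CATTCC, the TEAD motif GGAATG read on the other strand, at position −103 from the start, and TATAAA, the core of a TATA box, at position −25. In *Postn* they mark TATAAA at position −26, while the other promoter of *Postn* held 0 matches, and in *Thbs2* they mark TATAAA on the other strand, printed as TTTATA, at position −126. TEAD factors are the DNA-binding partners of YAP, and *Ccn1* and *Ccn2* are known YAP targets. Motifs were searched on both strands over 250 bases before and 50 bases after each start. TATAAA was present in 6 of the 9 promoters of the members, against 13.6% of 32851 RefSeq promoters. The 2 promoters of *Tnc* overlap and hold the same TATAAA, so these are 5 separate sites. Only those of *Ccn1* and *Postn* lie close to the start. The site of *Tnc* (−126 and −205 in its 2 promoters) and that of *Spp1* (−211) lie farther upstream, like that of *Thbs2*. GGAATG was present in 1 of 9, against 14.7% of all promoters. The AP-1 motif TGANTCA was found in 0 of 9 (7.81% of all promoters), and so was the CArG box of the serum response factor (1.63%). A CArG box can hold TATAAA inside it, and no match of one motif in the members overlapped a match of another motif.

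Levels are compared between genes only as CPM per kilobase of exon (CPM/kb). In wt, *Ccn1* was highest at 878 ± 262 CPM/kb (SD, n = 3), followed by *Sparc* at 536 ± 91.0, *Thbs1* at 406 ± 299, *Postn* at 207 ± 135 and *Ccn2* at 205 ± 86.3 CPM/kb (SD, n = 3 each). The next levels were 52.0 ± 26.4 CPM/kb for *Thbs2* and 51.4 ± 11.2 CPM/kb for *Fn1*, and the lowest were 1.73 ± 1.03 CPM/kb for *Spp1* and 0.918 ± 0.301 CPM/kb for *Tnc* (SD, n = 3 each). The ranges of the 3 wt libraries were separate between *Ccn1* and *Sparc*, between *Ccn2* and *Thbs2* and between *Fn1* and *Spp1*. All other neighbors in this order overlapped. Among the genes tested, the wt level per kilobase was above that of 93.7% of genes for *Fn1*, 93.8% for *Thbs2* and 98.8% or more for the 5 members above them, but above only 24.7% for *Spp1* and 14.8% for *Tnc*. In the libraries labelled flt3L-/-, *Ccn1* (823 ± 36.5 CPM/kb) and *Sparc* (611 ± 93.9 CPM/kb) were again the highest and *Tnc* (0.936 ± 0.515 CPM/kb) the lowest (SD, n = 3 each), while *Ccn2* (155 ± 78.3 CPM/kb) stood before *Postn* (100.02 ± 35.5 CPM/kb) and *Fn1* (47.6 ± 20.0 CPM/kb) before *Thbs2* (29.2 ± 15.2 CPM/kb).

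**Figure D1:**
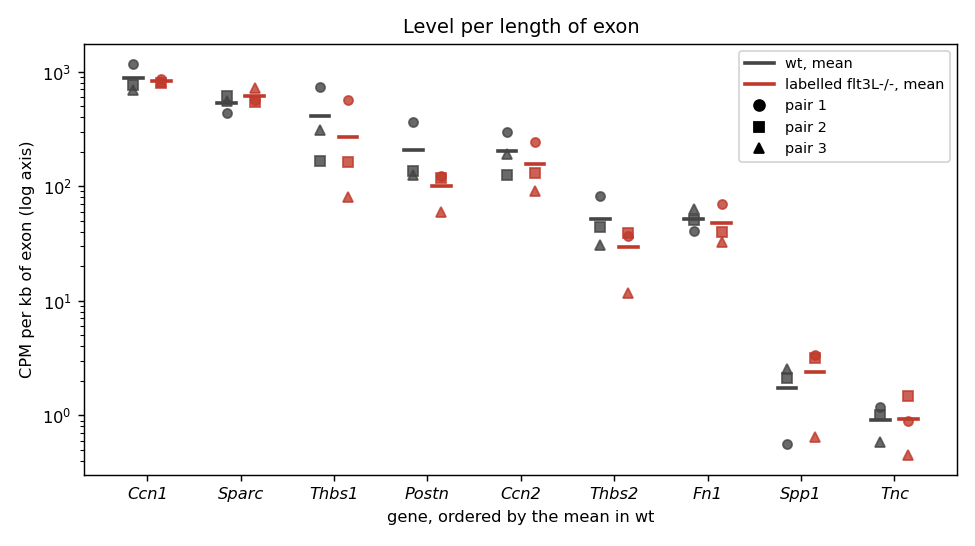
Level of each member in CPM per kilobase of exon on a log axis, in the order of the wt means, with a point for each of the 3 wt libraries and the 3 libraries labelled flt3L-/-. *Ccn1* and *Sparc* lie at the top, and *Spp1* and *Tnc* lie far below the other 7 members.

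No member passed the test between the genotypes after adjustment. Of the 9 members, 0 had an adjusted p under 0.05 in edgeR's quasi-likelihood test, against 0% of all genes tested, and DESeq2 called 0 of 9 members as well, against 0.156% of all genes. The study's own fit, with an earlier release of edgeR, did call genes between the genotypes, though no member. Its gene set analysis also reported sets of extracellular matrix genes and the epithelial-mesenchymal transition set as lower in flt3L-/- cells. No gene set was tested here. All 9 members passed the filter of more than 1 CPM in at least 2 libraries. *Thbs2* and *Postn* had an unadjusted p under 0.05, which makes 2 of 9, both lower in the libraries labelled flt3L-/-, against 3.59% of all genes in either direction and 2.49% in that direction. No member that was higher had one, against 1.11% of all genes. In DESeq2 3 of 9 members, *Thbs1* beside those named, had an unadjusted p under 0.05, against 4.76% of all genes. The log2 fold change was negative for 7 members and positive for *Sparc* and *Spp1*, and it was negative for 50% of all genes. *Postn*, *Thbs1* and *Thbs2* were lower in 3 of 3 pairs, against 11.5% of all genes, and 0 members were higher in 3 of 3 pairs, against 14.2%. The groups did not overlap for 1 member, *Postn*, which was lower in the libraries labelled flt3L-/-, against 2.92% of all genes, and 0 members were higher without overlap, against 3.53%. In a fit without pair 2, 4 of 9 members, *Thbs2*, *Postn*, *Thbs1* and *Ccn2*, had an unadjusted p under 0.05, all lower, against 7.47% of all genes, and without pair 1 or without pair 3 it was 0 of 9. The median log2 fold change over the members was −0.17, and that over all genes was −0.00027. Within pairs 1, 2 and 3 the median difference of the members was −0.39, −0.024 and −1.07.

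**Figure D2:**
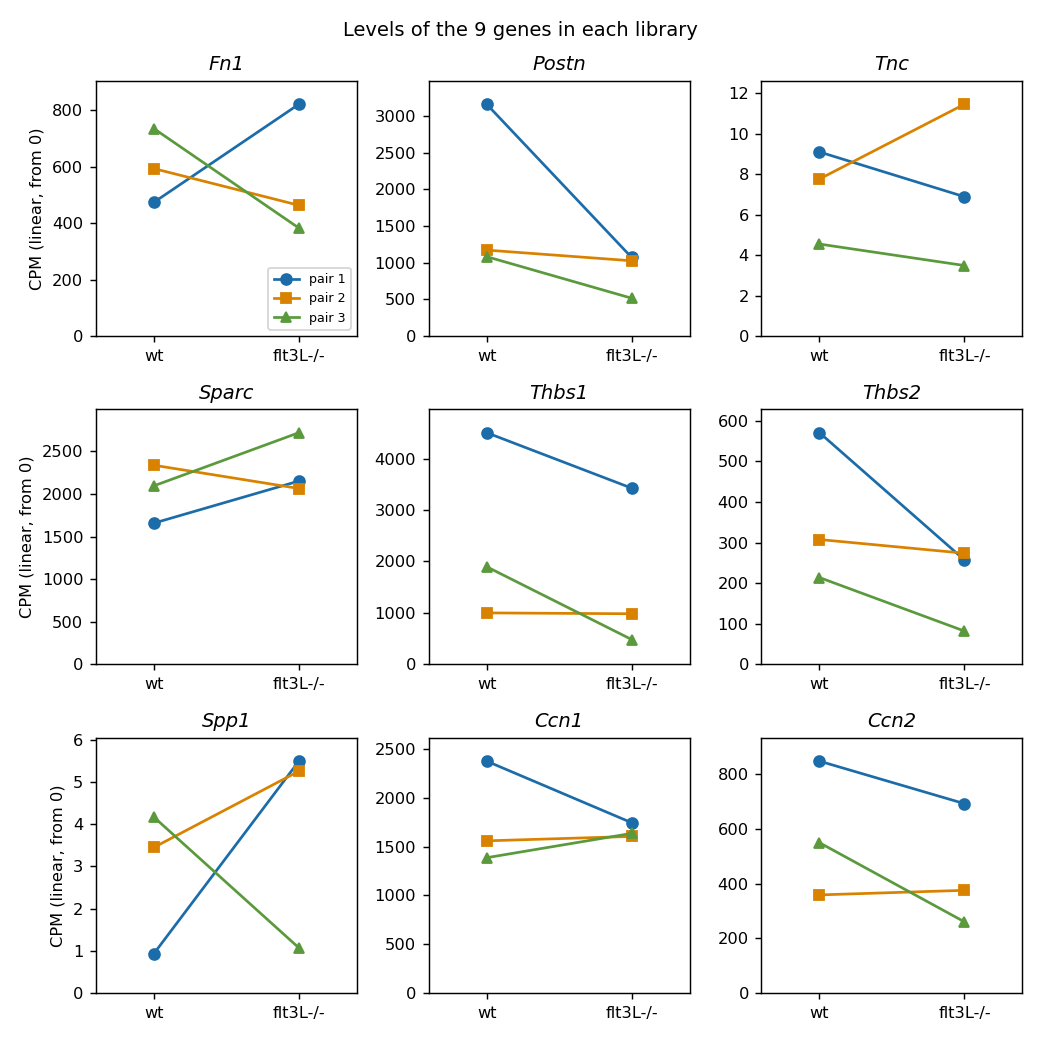
CPM of the 9 members in each library, 1 panel per member with its own axis from 0, with lines that join the libraries of a pair. *Postn* and *Thbs2* were lower in the libraries labelled flt3L-/- in all 3 pairs with a small difference in pair 2, whereas the pairs differ in direction for *Fn1*, *Tnc*, *Sparc*, *Spp1*, *Ccn1* and *Ccn2*.

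*Fn1* (ENSMUSG00000026193, chromosome 1 from 71585520 to 71653200, minus strand) encodes fibronectin. Over pairs 1, 2 and 3 its level was 474, 593 and 735 CPM in wt and 821, 463 and 383 CPM in those labelled flt3L-/-. The groups overlapped, and both the highest and the lowest library were labelled flt3L-/-. The model gave a log2 fold change of −0.17 (standard error 0.36, 95% confidence interval −1.12 to 0.77, adjusted p = 0.977). The 3 pairs differed by 0.79, −0.36 and −0.94 on the log2 scale, and without pair 3 the log2 fold change was 0.22.

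*Postn* (ENSMUSG00000027750, chromosome 3 from 54361109 to 54391037, plus strand) encodes periostin, which binds collagen and integrins and is best known from activated fibroblasts. It had 3161, 1171 and 1082 CPM in wt and 1071, 1026 and 515 CPM in those labelled flt3L-/-. The wt library of pair 1 stood far above the others, the library labelled flt3L-/- of pair 3 was the lowest, and the groups were separated by 1082 against 1071 CPM. The estimate between the genotypes was a log2 fold change of −0.94 (standard error 0.30, 95% confidence interval −1.73 to −0.15), with an unadjusted p of 0.0279 and an adjusted p of 0.973. The differences within pairs were −1.56, −0.19 and −1.07. Without pair 1 the log2 fold change was −0.63, and without pair 2 it was −1.34.

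The thrombospondins encoded by *Thbs1* and *Thbs2* are large glycoproteins that bind CD36, CD47 and integrins and limit the growth of vessels. *Thbs2* (ENSMUSG00000023885, chromosome 17 from 14665500 to 14694235, minus strand) had 571, 308 and 214 CPM in wt and 257, 274 and 82.2 CPM in those labelled flt3L-/-. It was lower in the library labelled flt3L-/- of every pair, but the groups overlapped, because the wt library of pair 3 lay below 2 of the libraries labelled flt3L-/-. The model estimate was −0.90 on the log2 scale (standard error 0.28, 95% confidence interval −1.62 to −0.19), with an unadjusted p of 0.0234 and an adjusted p of 0.973, and the pairs differed by −1.15, −0.17 and −1.38.

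*Thbs1* (ENSMUSG00000040152, chromosome 2 from 118111876 to 118127133, plus strand), whose product also activates latent TGF-beta, had 4503, 1001 and 1898 CPM in wt and 3425, 985 and 484 CPM in those labelled flt3L-/-. Pair 1 held the 2 highest values, and the groups overlapped. The model gave a log2 fold change of −0.78 (standard error 0.43, 95% confidence interval −1.90 to 0.33, adjusted p = 0.973). The pairs differed by −0.39, −0.024 and −1.97, and without pair 3 the log2 fold change was −0.21. Gm29233 overlaps 3.43% of the exon bases of *Thbs1*, and in these unstranded libraries their reads cannot be told apart there.

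**Figure D3:**
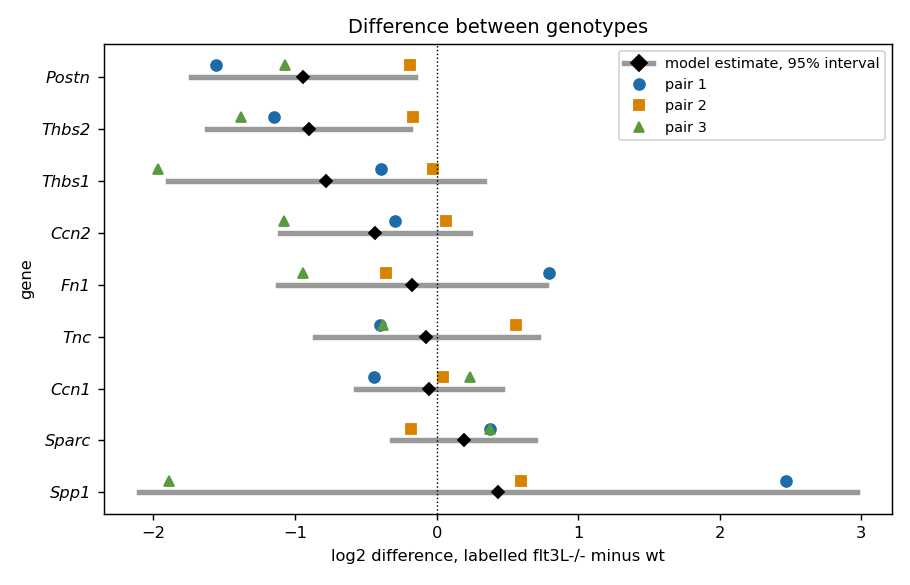
Log2 difference of each member within a pair, library labelled flt3L-/- minus wt library, 1 point per pair, with the model's log2 fold change and its 95% confidence interval. The intervals of *Postn* and *Thbs2* lie below 0, those of the other 7 members include 0, and pair 2 lies closer to 0 than pairs 1 and 3 for 8 of the 9 members, all but *Tnc*.

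The CCN proteins are cysteine-rich and bind integrins and heparan sulfate, and their genes respond quickly to mechanical load. *Ccn1* (formerly *Cyr61*, ENSMUSG00000028195, chromosome 3 from 145646976 to 145649981, minus strand) had 2375.5, 1559 and 1386 CPM in wt and 1744, 1604 and 1635 CPM in those labelled flt3L-/-. The 3 libraries labelled flt3L-/- lay inside the range of the wt libraries. The estimate between the genotypes was a log2 fold change of −0.055 (standard error 0.20, 95% confidence interval −0.57 to 0.46, adjusted p = 0.986), and it was 0.14 without pair 1.

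*Ccn2* (formerly *Ctgf*, ENSMUSG00000019997, chromosome 10 from 24595442 to 24598683, plus strand), connective tissue growth factor and a target of TGF-beta, had 848, 359 and 550.0 CPM in wt and 693, 376 and 260.1 CPM in those labelled flt3L-/-. The groups overlapped, and pair 1 again held both of the highest values. The model estimate was −0.43 on the log2 scale (standard error 0.26, 95% confidence interval −1.10 to 0.24, adjusted p = 0.973), and the pairs differed by −0.29, 0.066 and −1.08. Gm15270 shares 23.2% of the exon bases of *Ccn2*, so the count of *Ccn2* is uncertain to that extent.

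*Sparc* (ENSMUSG00000018593, chromosome 11 from 55394500 to 55423183, minus strand) encodes a collagen-binding protein that endothelial cells and fibroblasts both make. It had 1659, 2339 and 2097 CPM in wt and 2153, 2066 and 2721 CPM in those labelled flt3L-/-. The groups overlapped, and the highest library was 1.64 times the lowest, the smallest such ratio of the 9 members, followed by 1.71 for *Ccn1*. The model gave a log2 fold change of 0.19 (standard error 0.19, 95% confidence interval −0.31 to 0.70, adjusted p = 0.973), with differences of 0.38, −0.18 and 0.38 in the pairs.

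*Spp1* (ENSMUSG00000029304, chromosome 5 from 104435118 to 104441050, plus strand), which encodes osteopontin, a ligand of integrins and CD44 that macrophages secrete, had 0.933, 3.45 and 4.17 CPM in wt and 5.50, 5.26 and 1.07 CPM in those labelled flt3L-/-. These rest on 24 to 151 reads. The log2 fold change of 0.43 had a standard error of 0.97 and a 95% confidence interval of −2.10 to 2.97 (adjusted p = 0.977), and the pairs differed by 2.46, 0.60 and −1.89. Gm42793 shares 18.8% of its exon bases.

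*Tnc* (ENSMUSG00000028364, chromosome 4 from 63959785 to 64047015, minus strand) encodes tenascin-C, which loosens the adhesion of cells to fibronectin. It had 9.10, 7.76 and 4.54 CPM in wt and 6.88, 11.5 and 3.48 CPM in those labelled flt3L-/-, from 88 to 270 reads. The groups overlapped, and in each group the library of pair 3 was the lowest. The estimate between the genotypes was a log2 fold change of −0.073 (standard error 0.30, 95% confidence interval −0.86 to 0.71, adjusted p = 0.988), and its sign changed when pair 1 or pair 3 was left out.

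Between the sorting dates, 0 of 9 members passed the test in edgeR and 4 of 9 in DESeq2. For 5 of the 9 members the unadjusted p of the date terms was under 0.05 in edgeR's quasi-likelihood test, against 8.28% of all genes, and 0 of 9 had an adjusted p under 0.05, against 0% of all genes. Compared with the first date, *Thbs1* differed by −1.95 on the second and −1.93 on the third date on the log2 scale with an unadjusted p of 0.0173, and *Ccn2* by −1.04 and −0.99 with a p of 0.0330. *Thbs2* differed by −0.36 and −1.52 with a p of 0.0181, and *Postn* by −0.73 and −1.33 with a p of 0.0405. *Tnc* differed by 0.28 and −0.99 with a p of 0.0496, and the adjusted p of these 5 members was 0.598. DESeq2's likelihood ratio test called 4 of 9 members between the dates, against 2.99% of all genes, with an adjusted p of 0.000438 for *Thbs1*, 0.00924 for *Thbs2*, 0.0446 for *Ccn2* and 0.0491 for *Postn*. Each date holds 1 library of each genotype, so the genotypes are balanced over the dates, and what else differed between the sorting days is not given in the labels.

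Over the 6 libraries, *Thbs1* and *Ccn2* followed each other most closely of the 36 pairs of members. Pearson's r of their log2 CPM was 0.997 (exact permutation p = 0.00278, adjusted p = 0.1 over the 36 relations), Spearman's rho was 0.943 (exact permutation p = 0.0167, adjusted p = 0.6), and r was 0.991 without the 2 libraries farthest from the median of *Thbs1*. *Postn* and *Thbs2* had r = 0.942 (exact permutation p = 0.0444, adjusted p = 0.219) and rho = 0.77 (exact permutation p = 0.103, adjusted p = 0.74), but r was 0.42 without the 2 libraries farthest from the median of *Postn*, so the relation rests on those libraries. *Postn* and *Sparc* had r = −0.940 (exact permutation p = 0.0486, adjusted p = 0.219) and rho = −0.49 (exact permutation p = 0.356, adjusted p = 0.8). Without 2 libraries r turned to 0.95, so this relation also rests on them. None of the 36 relations had an adjusted p under 0.05, and the libraries share sorting dates.

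Levels of cell type markers are given beside those of the members. In bulk RNA, fewer cells of a type and less RNA per cell cannot be told apart. The summed level of 7 fibroblast markers was 15439.6, 8382 and 6422 CPM in wt and 6344, 9767 and 3189.6 CPM in those labelled flt3L-/-, and *Dcn*, which encodes decorin, made up 61.2% to 75.6% of it. All 7 had a negative log2 fold change, with a median of −0.74, and none was at 0 in any library. The sum was highest in the wt library of pair 1, which also had the most *Postn*, *Thbs1* and *Thbs2*, and lowest in the library labelled flt3L-/- of pair 3, which had the least of the 3. Per 1000 CPM of this sum, *Postn* had 205, 139.7 and 168 CPM in wt and 169, 105 and 161 CPM in those labelled flt3L-/-, a difference in the pairs of −0.28, −0.41 and −0.061 on the log2 scale. On the same scale *Thbs2* had 36.95, 36.7 and 33.3 CPM in wt and 40.5, 28.0 and 25.8 CPM in those labelled flt3L-/-, lower in 2 of 3 pairs. *Thbs1* had 292, 119 and 296 CPM in wt and 539.9, 101 and 152 CPM in those labelled flt3L-/- on this scale, with differences in the pairs of 0.89, −0.24 and −0.96. The part of the fibroblast markers in these differences was not tested beyond these ratios.

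*Sparc* is set beside the endothelial markers. The sum of 7 endothelial markers was 6994, 9245 and 9226 CPM in wt and 9291, 7419 and 11047 CPM in those labelled flt3L-/-, with a negative log2 fold change for 2 of 7, a median of 0.19 and none at 0. Per 1000 CPM of this sum, *Sparc* had 237, 253 and 227 CPM in wt and 232, 278 and 246 CPM in those labelled flt3L-/-. The CPM of *Sparc* and the endothelial sum were both lowest in the wt library of pair 1 and both highest in the library labelled flt3L-/- of pair 3. So were *Pecam1*, *Tek*, *Emcn*, *Cldn5* and *Fabp4*, the last with 1660 and 4690 CPM in these libraries. *Cdh5* was instead lowest in the library labelled flt3L-/- of pair 3 (223 CPM). *Kdr* was also lower there (3119 CPM) than in the wt library of pair 1 (3385 CPM). The sum of 8 markers of pericytes and smooth muscle was 759.9, 381 and 414 CPM in wt and 485, 439 and 249.5 CPM in those labelled flt3L-/-, with 7 of 8 lower and a median log2 fold change of −0.42. Its highest and lowest libraries were those of *Postn*, *Thbs1*, *Thbs2* and the fibroblast sum. The part of these cells in the members was not tested.

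**Figure D4:**
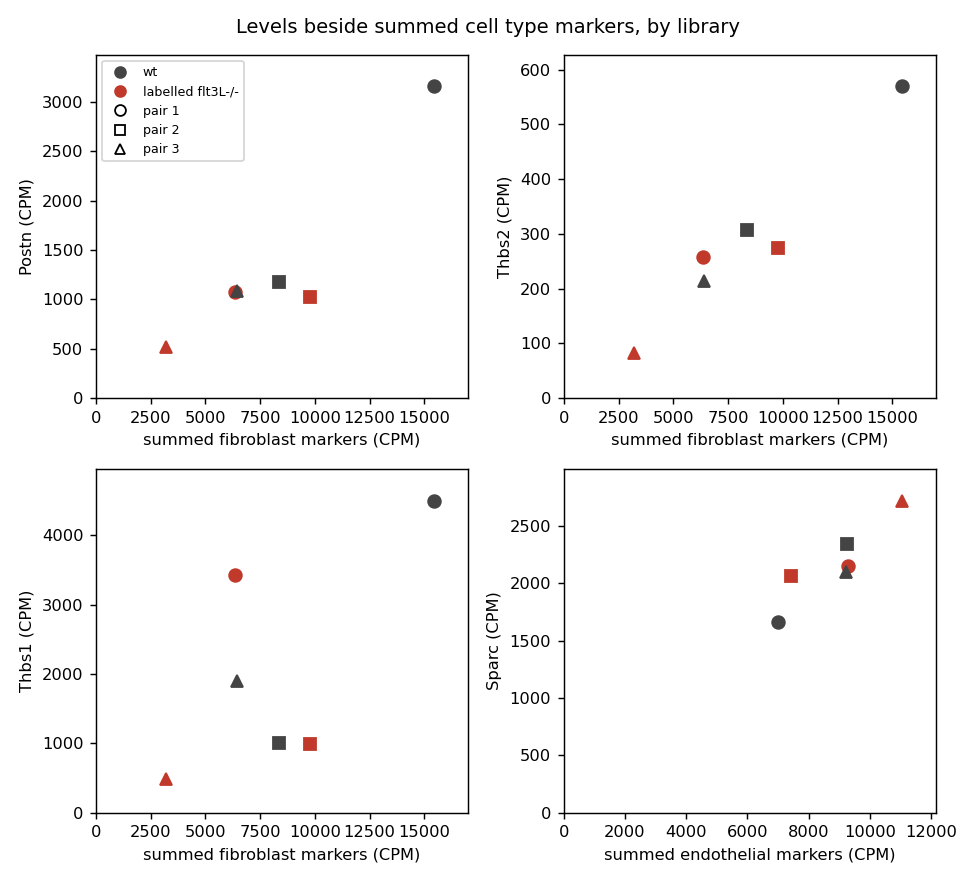
CPM of *Postn*, *Thbs2* and *Thbs1* against the summed CPM of 7 fibroblast markers, and of *Sparc* against that of 7 endothelial markers, 1 point per library, with the color for the genotype and the shape for the pair. *Postn*, *Thbs2* and *Thbs1* are lowest in the library with the lowest fibroblast sum and highest in the library with the highest, and *Sparc* does the same over the endothelial sum. Between these ends *Postn*, *Thbs2* and *Thbs1* do not keep the order. The libraries of pair 2 have the next highest fibroblast sums and low *Thbs1*. Of these libraries, the one labelled flt3L-/- has the higher fibroblast sum but less *Postn* and *Thbs2*.

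*Spp1* was lowest in the 2 libraries with the lowest sums of macrophage and neutrophil markers, the wt library of pair 1 and the library labelled flt3L-/- of pair 3. The sum of 8 macrophage and monocyte markers was 35.4, 585 and 1662 CPM in wt and 281, 939 and 90.6 CPM in those labelled flt3L-/-, with 6 of 8 lower and a median log2 fold change of −0.21. *Lyz2* alone had 17.1, 507 and 1527 CPM in wt and 246, 844 and 67.4 CPM in those labelled flt3L-/-. Like *Lyz2*, *Adgre1*, *Csf1r*, *Cd68* and *Fcgr1* were lowest in the 2 libraries with the least *Spp1*. *C1qa*, *C1qb* and *Cd163* were lower in the library labelled flt3L-/- of pair 1, which had the most *Spp1*, than in that of pair 3. The sum of 5 neutrophil markers was 1.83, 93.6 and 80.2 CPM in wt and 123, 204 and 5.94 CPM in those labelled flt3L-/-, with 0 of the 4 tested lower and a median log2 fold change of 1.03. *Ly6g*, a defining marker, was at 0 in the 2 libraries with the least *Spp1*. In the others it had only 0.116 to 0.51 CPM, near the detection limit, so its values say little. The sum of 8 markers of lymphocytes and NK cells was 42.3, 84.6 and 174 CPM in wt and 26.4, 81.8 and 24.8 CPM in those labelled flt3L-/-, with 4 of the 5 tested lower and a median log2 fold change of −1.43. It did not follow *Spp1*, since the library labelled flt3L-/- of pair 1 had the highest *Spp1* and the second lowest sum. The part of these cells in the values of *Spp1* was not tested. The other sums ran over the 6 libraries from 11.6 to 18.4 CPM for platelets, 100.5 to 183 CPM for cardiomyocytes, 22.1 to 65.1 CPM for mesothelial cells, 3.68 to 10.1 CPM for Schwann cells, 243 to 491 CPM for erythroid cells and 1813 to 3439.7 CPM for the side population.

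Relatives of the members were lower more often than higher. Of 21 genes of the thrombospondin, tenascin, SPARC, CCN and related families, 13 passed the filter, 10 with a negative and 3 with a positive log2 fold change and a median of −0.54. Of all genes, 50% had a negative one. Within pairs 1, 2 and 3 the median difference of the relatives was −0.45, 0.065 and −0.80, so pair 2 did not share the lower level. After adjustment none passed, and before it 4 of 13 had a p under 0.05, all of them lower, against 2.49% of all genes in that direction. The 7 fibroblast markers were lower as well, with the median of −0.74 given above, and their part in these values was not tested. The 4 relatives with a p under 0.05 were *Ccn5* (log2 fold change −0.94, unadjusted p of 0.0330), *Comp*, a thrombospondin of cartilage and tendon (−0.65, p of 0.0469), *Fstl1* (−0.50, p of 0.0479) and *Smoc1* (−0.83, p of 0.0497), the last named after its value was seen. *Sparcl1*, the closest relative of *Sparc*, had 2088 ± 192 CPM in wt and 2591 ± 690 CPM in those labelled flt3L-/- (SD, n = 3 each), a log2 fold change of 0.28. *Ccn3* had 79.5 ± 1.15 CPM in wt and 365 ± 475 CPM in those labelled flt3L-/- (SD, n = 3 each), and its pairs differed by 0.27, 0.15 and 3.50, so its log2 fold change of 1.21 came mostly from pair 3.

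Of 18 receptor genes, which encode integrins, CD36, CD44, CD47, syndecans, LRP1 and stabilin-1, 17 passed the filter, 13 with a negative and 4 with a positive log2 fold change and a median of −0.34. Of all genes, 50% had a negative one. Within pairs 1, 2 and 3 the median difference of the receptor genes was −0.054, −0.23 and −0.68, largest in pair 3. Again 0 passed after adjustment in the fit here, although the study's own edgeR fit called *Itgav* lower. Before adjustment 4 of 17 had a p under 0.05, all lower, against 2.49% of all genes in that direction. *Itgav*, the integrin subunit that pairs with several beta subunits to bind fibronectin, osteopontin and periostin, had a log2 fold change of −0.58 (unadjusted p of 0.00715), and *Itga8*, which binds fibronectin and osteopontin with *Itgb1*, had −0.90 (p of 0.0242). The other two were *Sdc1* (−0.51, p of 0.0455) and *Itgb8* (−1.40, p of 0.0496), which were named after their values were seen. The most abundant receptor genes did not pass the test. *Cd36*, a thrombospondin receptor, had 5658 ± 1297 CPM in wt and 6955 ± 2233 CPM in those labelled flt3L-/- (SD, n = 3 each), *Itgb1* had 1370.2 ± 76.4 and 1498 ± 237 CPM, and *Lrp1*, which clears thrombospondins from the cell surface, had 455 ± 159.6 and 309.6 ± 186 CPM.

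Genes of the pathways that act on *Ccn1*, *Ccn2* and *Thbs1* were balanced between the directions. Of 19 genes of YAP-TEAD and TGF-beta signaling, 9 had a negative and 10 a positive log2 fold change, with a median of 0.029, 0 passed after adjustment and 1 of 19 had a p under 0.05 before it, against 3.59% of all genes. That gene was *Tgfb2*, a TGF-beta ligand, with −0.72 (unadjusted p of 0.0484), and the next smallest p belonged to *Tead2* with 0.34 (p of 0.0723). *Wwtr1*, which encodes the YAP homolog TAZ, had 558 ± 37.6 CPM in wt and 576 ± 110.5 CPM in those labelled flt3L-/- (SD, n = 3 each), the receptor gene *Tgfbr2* had 368 ± 7.74 and 364 ± 53.6 CPM, and *Lats2*, a kinase that restrains YAP, had 308 ± 11.4 and 308 ± 82.2 CPM. Of 20 immediate early genes, which cells switch on within minutes of a stimulus, 9 had a negative and 11 a positive log2 fold change, with a median of 0.014, and 0 had an unadjusted or an adjusted p under 0.05. The smallest p-values were those of *Fosb* (−0.55, p of 0.101) and *Dusp1* (0.26, p of 0.219). *Egr1* had 6210.5 ± 1484 CPM in wt and 6047 ± 585 CPM in those labelled flt3L-/- (SD, n = 3 each), *Fos* had 3625 ± 465 and 3659.8 ± 212 CPM, and *Junb* had 3174 ± 349.9 and 3478 ± 27.8 CPM.

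For each member, the 3 genes with the highest Pearson's r of log2 CPM over the 6 libraries were taken from the other 13466 genes tested, as a description. The libraries share sorting dates, and with 6 points a search this wide can reach high values by itself. Those of *Postn* included *Palld* (r = 0.994) and *Myh10* (0.993), and those of *Thbs2* included *Adamts12* (0.998) and *Spon1* (0.996). *Thbs1* and *Ccn2* had *Cap2* in common, at 0.990 and 0.994. Beside it stood *Kat2b* (0.995) and *Nfatc2* (0.991) for *Thbs1*, and *Slc7a2* (0.987) and the syndecan gene *Sdc4* (0.986) for *Ccn2*. *Ccn1* was nearest to *Wdpcp* (0.995), *Ppm1b* (0.990) and *Tiparp* (0.989), and *Fn1* to *Zfp638* (0.996), *Nat10* (0.989) and *Atxn3* (0.984). *Sparc* was nearest to *Zfp408* (0.999), *Zfp60* (0.994) and *Grap* (0.993). *Tnc* was nearest to *B4galt2* (0.995), *Mapre3* (0.994) and *1700109H08Rik* (0.993). *Spp1* was nearest to *Cnr2* (0.998), *Prss53* (0.995) and *Adgrg3* (0.994), at levels that rest on few reads for *Spp1* itself.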

How the data were processed

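RNA of sorted cardiac SP cells was sequenced in 6 libraries, each from 4 pooled mice. Per the labels and the study's methods, the authors prepared unstranded SMART-Seq v4 libraries, mapped single reads of 81 bases to mm10 with STAR 2.5.2a, kept reads with at most 10 hits, assigned each to its best or a random best location, and counted reads that start in an exon with QuasR on Ensembl release 88. The deposited values are these raw counts. FastQC 0.11.3 is also named in the submitters' processing notes.

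Gene positions, biotypes and exon lengths were taken from GENCODE M21 on GRCm38, which held 50376 of the 50600 genes, a later release than the one used for counting. Genes that are protein-coding and exceed 1 CPM in 2 or more libraries were tested in edgeR 4.0.16 on R 4.3.3 (glmQLFit and glmQLFTest, legacy = TRUE, TMM factors), with the sorting date as a covariate. Calls were made at an adjusted p under 0.05. Standard errors follow from each log2 fold change divided by the root of its F statistic. Differences within pairs used a prior count of 2. The fit was tested on simulated counts. Correlations used exact permutation tests, two-sided.

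The pairs come from the labelled sorting dates and the methods. After removal of group means, libraries of the same date correlated by 0.180, 0.104 and 0.116, and libraries of different dates by −0.354 to 0.247. Between any 2 libraries r was 0.914 to 0.976, and no chi-square statistic of their counts was below 54.6 per degree of freedom, so none was treated as a copy.

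The members, the lists and the tests were chosen with earlier results of these data known. By the rule for named genes, the text names all 9 members, from each other list the 3 genes with the highest mean CPM and the 2 genes with the lowest p, and the 3 genes nearest to each member, of which some are not reported here. Alternatives were 2 other scalings, DESeq2 1.42.0, legacy = FALSE, 2 other filters, all biotypes, no replicate block and leaving out each pair. Protein sequences were not used here.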

Additional observations from a re-analysis of the deposited data

How the results depend on the processing

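Between the genotypes, 0 members were called under each of the 11 alternatives, and the median log2 fold change of the members stayed negative, from −0.11 without the replicate block to −0.21 with library size only, and from −0.63 without pair 1 to −0.11 without pair 3. Without the replicate block, 0 members had an unadjusted p under 0.05, and 262 genes had one in place of 484. Leaving out pair 1 or pair 3 also left 0 such members, and leaving out pair 2 gave 4 (*Thbs2*, *Postn*, *Thbs1* and *Ccn2*), against 7.47% of all genes, with 980 genes. The log2 fold changes ran from −1.34 to −0.63 for *Postn*, −1.29 to −0.66 for *Thbs2*, −1.20 to −0.21 for *Thbs1*, −0.71 to −0.11 for *Ccn2* and 0.098 to 0.35 for *Sparc* when 1 pair was left out, with no change of sign, and from −0.41 to 0.097 for *Tnc*, −0.65 to 0.22 for *Fn1*, −0.64 to 1.54 for *Spp1* and −0.20 to 0.14 for *Ccn1*.

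The sign changed for *Tnc* without the replicate block (0.028), without pair 1 (0.097) and without pair 3 (0.081), for *Spp1* without pair 1 (−0.64), for *Ccn1* without pair 1 (0.14) and for *Fn1* without pair 3 (0.22). DESeq2 called 21 genes between the genotypes where edgeR called 0, and 4 members between the sorting dates where edgeR called 0. The study, with an earlier release of edgeR and the date as a covariate, reported genes that passed between the genotypes, *Itgav* among them. Why the edgeR fit here called 0 genes was not tested. Over all genes, the number called between the dates was 0 with edgeR, 112 with edgeR without pair 2 and 403 with DESeq2. The cause of that difference was not tested. Without a pair each group holds 2 libraries. The reads of *Spp1* (24 to 151) and *Tnc* (88 to 270) limit their precision, and the intervals of all members but *Tnc*, *Sparc* and *Ccn1* include differences of more than 1 on the log2 scale.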
